A study of Homo sapiens with 12 samples.

Results

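The solute carriers are the large superfamily of membrane proteins that move sugars, amino acids, ions, metals, vitamins and metabolites across the cell surface and the membranes of organelles. The genes described here are those whose symbol has the form SLC, a family number, the letter A and a member number, and whose mean over 12 RNA libraries was at least 1 CPM (counts of a gene per 1000000 gene counts of its library). By this rule 174 of 334 such symbols were expressed, out of 26364 genes in the files, and they came from 39 families. The members were thus chosen by their mean level over all libraries, and that rule used no difference between groups. The expressed genes just inside the threshold were SLC4A8 at 1.14 CPM, SLC44A3 at 1.19 and SLC22A18 at 1.33. Those just outside were SLC17A7 at 0.735 CPM, SLC10A5 at 0.728 and SLC26A4 at 0.633. Of the 160 symbols left out, 83 had 0 counts in every library. All 174 passed the filter on low counts that was applied to the whole table.

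The study profiled polyadenylated RNA of RKO, an established human colon carcinoma line grown in McCoy's medium with fetal bovine serum, and of derivatives made from it to vary PRDM1. PRDM1 is a zinc finger protein best known as a transcriptional repressor. The 6 groups had 2 libraries each: a derivative that overexpresses the alpha form of PRDM1 (alpha), a derivative that overexpresses the beta form (beta), a derivative that overexpresses GFP and serves as their control, the CRISPR/Cas9 PRDM1 knockout derivatives KO2 and KO5, and PRDM1 wild-type RKO cells (WT). The labels do not give the promoter or vector of the overexpressed genes, nor whether KO2 and KO5 are each 1 clone. Nor do they tell if the 2 libraries within each group are separate cultures, so p-values reflect only the spread of these samples, which may be technical.

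Gene counts ranged from 19058967 to 55961821 per library. PRDM1 had 9681 to 28423 counts in the alpha and beta libraries and 0 to 6 in all the others, WT included. Of 10 markers of colon epithelium, KRT8, KRT18 and CDX2 reached 1 CPM, EPCAM and CDH17 had 0 counts, and CDH1, KRT20 and VIL1 were near 0. The summed level of these 10 was 821 CPM with alpha, 930 with beta, 915 with GFP, 1020 in KO2, 1160 in KO5 and 988 in WT. Of 6 leukocyte markers, CD68 alone reached 1 CPM, with CD3E, CSF1R and LYZ at 0, and the sum was 28.3 CPM with alpha, 25.5 with beta and 19.1 with GFP, and 11.9 in KO2, 12.2 in KO5 and 18.7 in WT. Of 7 fibroblast markers 3 reached 1 CPM, with DCN at 0 and a sum between 8.37 and 16.2 CPM, and none of 4 endothelial markers did. The part of these differences in the results below was not tested.

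Carriers work either by letting a solute run down its gradient or by coupling it to the gradient of sodium, protons or another solute. Cancer cells in culture are known to depend on the glucose, lactate and glutamine carriers at their surface, and on cystine uptake for glutathione. Several carriers act as heterodimers, such as the light chains of the SLC7 family with the heavy chain SLC3A2, and the lactate carriers need the chaperone basigin.

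The 174 genes together took 1.38% and 1.39% of gene counts in the alpha libraries and 1.41% in each beta library, against 1.27% and 1.3% in the GFP libraries. Their share was 1.23% and 1.25% in KO2 and 1.35% and 1.36% in KO5, against 1.29% and 1.31% in WT. These shares include SLC2A3, whose means were 1400 CPM with alpha and 1350 with beta, against 541 with GFP. It stood at 1310 CPM in KO5, against 536 in WT, and the shares without it were not computed. Mean levels ran from 1.14 to 922.6 CPM with a median of 33.7 CPM. At 100 CPM or more there were 36 genes, at 10 to 100 CPM 108, and below 10 CPM 30. Levels between genes are compared per kilobase of the longest annotated coding transcript. On that scale SLC25A5, an ADP/ATP carrier of the inner mitochondrial membrane, stood at 369 CPM per kilobase. SLC2A3, a glucose carrier with high affinity, stood at 236 CPM per kilobase, above SLC7A5 (125), the light chain that imports large neutral amino acids, SLC1A5 (112), a glutamine exchanger, and SLC3A2 (104). The lactate carrier SLC16A1 reached 84.2 CPM per kilobase and the zinc importer SLC39A1 reached 85.

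Across the 6 groups the highest and lowest group means of a gene differed by a median of 0.36 on the log2 scale. For 56 genes they differed by less than 1.2-fold, and for 16 by 2-fold or more, while 1494 of the 12858 genes tested in the whole table did so. SLC1A3 spanned 2.18 on this log2 scale, with KO2 highest and beta lowest. SLC2A3 spanned 1.82, with alpha highest and KO2 lowest. In 7 pairwise comparisons 21 of the 174 genes passed in none. Among them were SLC25A5, with 458 to 486 CPM over all libraries, and the nucleoside carrier SLC29A1. Both passed in KO5 against WT (-0.075 and 0.105) once the trend of counts with transcript GC content was removed from each library. SLC29A1 then also passed in KO5 against KO2 (0.158).

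**Figure D1:**
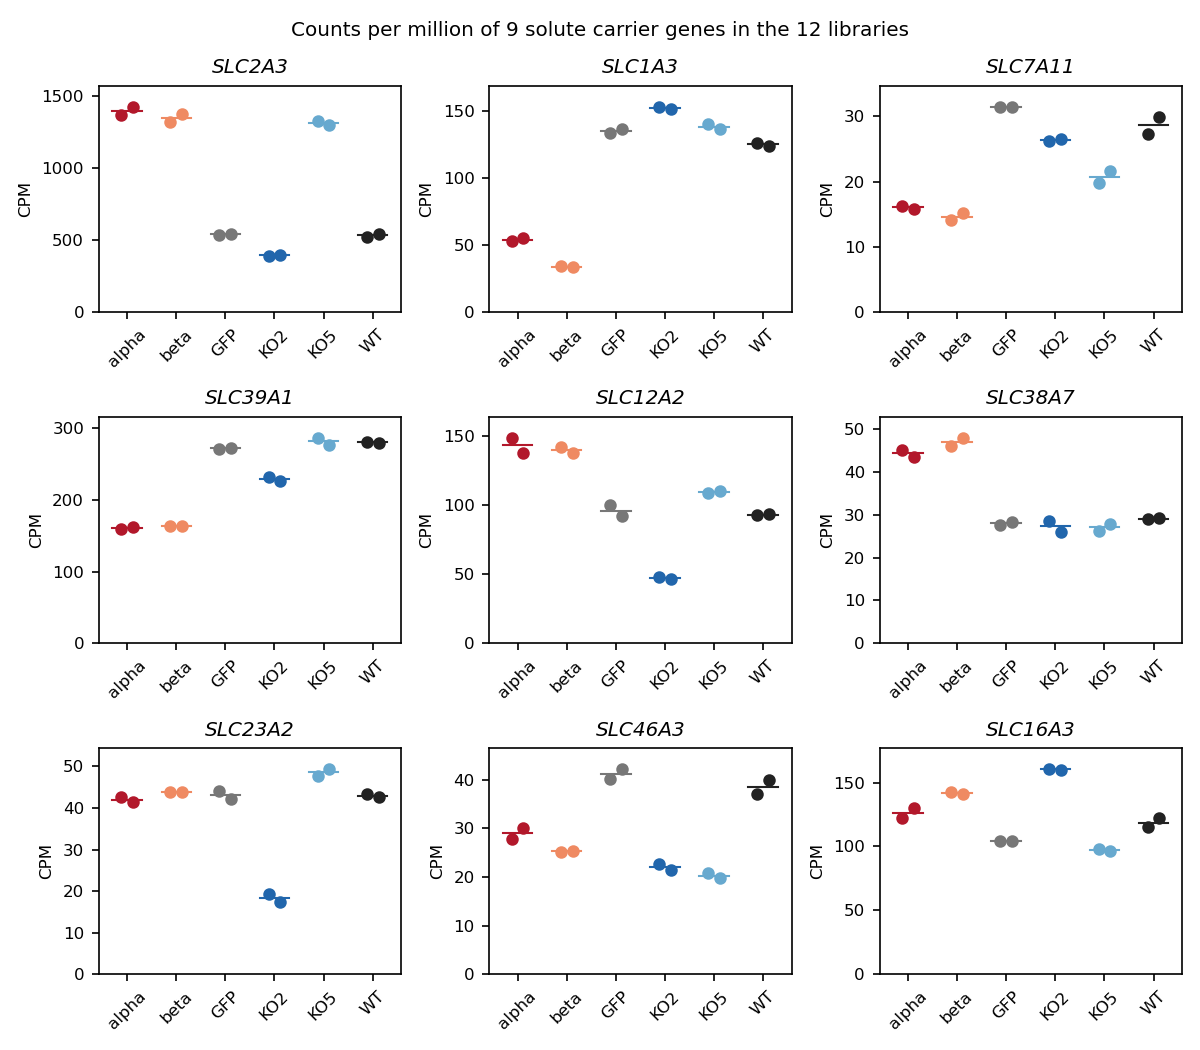
CPM (vertical axes, linear, from 0) of 9 solute carrier genes in the 2 libraries of each group (points) with the group mean (lines). SLC2A3 stood at 1300 to 1430 CPM in the alpha, beta and KO5 libraries and at 547 CPM or less in the others, and SLC23A2 was low in the KO2 libraries.

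With the alpha form of PRDM1 the strongest changes were in carriers of glucose and of acidic amino acids. SLC2A3 rose 2.6-fold and SLC1A3 fell by 1.31 on the log2 scale, and the cystine carrier SLC7A11 fell by 0.97. Over the 174 genes, 54 rose, 28 fell and 92 did not pass in alpha against GFP, where rose and fell mean an adjusted p under 0.05 in edgeR's quasi-likelihood test, adjusted over all 12858 genes. Of all genes tested 37.5% passed, 21.2% as rises and 16.3% as falls, while of the solute carriers 31% rose and 16.1% fell. In beta against GFP, 62 rose, 30 fell and 82 did not pass, or 35.6% and 17.2% of the solute carriers, against 40.9% called, 22.9% risen and 18% fallen among all genes. The share of falls was near that of all genes in both comparisons, and the share of rises was above it. The median log2 fold change was 0.06 with alpha and 0.08 with beta over the solute carriers, against 0.01 and 0.01 over all genes. Few changes were large: 2 genes rose and 1 fell by at least 2-fold with alpha (1.72% and 1.08% of all genes), and 2 rose and 4 fell with beta (1.42% and 1.61%). The rises were SLC2A3 and SLC2A14 in both comparisons. The fall with alpha was SLC1A3, and the falls with beta were SLC1A3, SLC7A11, SLC1A1 and SLC44A3, a member of the choline carrier family at 0.525 and 0.869 CPM with beta, against 1.53 and 1.67 CPM with GFP. Both comparisons use the same GFP libraries, so their values are set side by side and are not independent of each other.

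Sugar carriers held the 2 large rises. SLC2A3, the high-affinity glucose carrier, had 1370 and 1430 CPM with alpha and 1320 and 1380 CPM with beta, against 537 and 544 CPM with GFP. All alpha and beta libraries stood above both GFP libraries, by a log2 fold change of 1.38 ± 0.03 with alpha (adjusted p = 9.67e-37) and 1.33 ± 0.03 with beta (adjusted p = 3.47e-36; standard errors, n = 2 libraries per group here and below). In bulk RNA, a difference in the level of a transcript per cell and in the number of cells that make it cannot be told apart. SLC2A14, a close copy of SLC2A3 on the same chromosome, had 57.8 and 56.8 CPM with alpha and 60.8 and 55.3 CPM with beta, against 21.8 and 22.2 CPM with GFP. Its counts are uncertain, because 20.3% of the 50-base windows of the SLC2A3 transcript also occur in that of SLC2A14, and 21.8% the other way round. There were 3.29 to 4.62 SLC2A14 counts per 100 SLC2A3 counts in every library, and the part of reads shared between them was not tested.

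Apart from SLC2A3 and SLC2A14 the glucose carriers moved less. SLC2A1, the widely expressed glucose carrier, had 88.7 and 88.6 CPM with alpha and 94.9 and 91.5 CPM with beta, against 106 and 103 CPM with GFP. It fell by 0.23 with alpha (adjusted p = 6.69e-06) and by 0.16 with beta (adjusted p = 0.0011) on the log2 scale. Of the 16 sugar carriers, 6 rose and 1 fell with alpha, and 8 rose and 3 fell with beta, with medians of 0.09 and 0.22. SLC2A6, a lysosomal member of the glucose carrier family, had 34.3 and 37.9 CPM with beta, against 25.6 and 23.1 CPM with GFP, a log2 fold change of 0.58 ± 0.06. SLC2A10, a carrier of the same family, had 10.2 CPM in both beta libraries, against 6.57 and 7.02 CPM with GFP (0.59 ± 0.11). SLC2A12 rose by 0.50 with beta, a call that was lost without GFP replicate 1 (0.27) and without either beta library (0.48 and 0.53).

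Among the 25 amino acid carriers, 10 rose and 7 fell with alpha, and 13 rose and 6 fell with beta. The falls were the larger changes. SLC1A3, a sodium-coupled importer of glutamate and aspartate, had 52.9 and 55.2 CPM with alpha and 34 and 33.3 CPM with beta, against 133 and 136 CPM with GFP. The 3 groups did not overlap, and the log2 fold change was -1.31 ± 0.05 with alpha (adjusted p = 1.02e-30) and -1.99 ± 0.05 with beta (adjusted p = 9.79e-37). SLC1A1, another glutamate importer, had 5.86 and 4.51 CPM with alpha and 4.41 and 4.34 CPM with beta, against 9.21 and 8.47 CPM with GFP. SLC7A11, the light chain of the exchanger that imports cystine for glutamate, had 16.3 and 15.8 CPM with alpha and 14.1 and 15.2 CPM with beta, against 31.5 CPM in both GFP libraries. It fell by 0.97 ± 0.07 with alpha (adjusted p = 4.15e-16) and by 1.09 ± 0.08 with beta (adjusted p = 1.33e-17) on the log2 scale. SLC6A9, a glycine importer, fell by 0.57 with alpha and by 0.54 with beta.

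The amino acid carriers that rose did so by less than 2-fold. SLC38A7, a lysosomal glutamine exporter, had 45.2 and 43.4 CPM with alpha and 46.1 and 48 CPM with beta, against 27.7 and 28.2 CPM with GFP. Its log2 fold change was 0.67 ± 0.06 with alpha and 0.76 ± 0.06 with beta. SLC43A2, a sodium-independent carrier of large neutral amino acids, rose by 0.56 ± 0.07 and 0.62 ± 0.07. SLC1A5, the glutamine exchanger, had 359 and 367 CPM with alpha and 370 and 371 CPM with beta, against 314 and 304 CPM with GFP (0.24 and 0.27). The heterodimer of SLC3A2 and SLC7A5 changed little: SLC3A2 rose by 0.11 with alpha and 0.17 with beta, and SLC7A5 by 0.12 and 0.14. The SLC7A5 call with alpha was lost when the trend of counts with transcript GC content was removed from each library (0.06). Without GFP replicate 2 the call of SLC7A5 was lost with alpha (0.05) and with beta (0.07), and that of SLC3A2 with alpha (0.04); the SLC3A2 call with alpha was also lost without alpha replicate 1 (0.10).

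Of 23 inorganic ion and acid-base carriers 10 rose and 2 fell with alpha, with a median log2 fold change of 0.13. With beta 6 rose and 2 fell. SLC12A2, the sodium-potassium-chloride cotransporter that loads epithelial cells with chloride, had 149 and 138 CPM with alpha and 142 and 138 CPM with beta, against 100 and 92.1 CPM with GFP. It rose by 0.59 ± 0.04 with alpha (adjusted p = 4.48e-17) and by 0.55 ± 0.04 with beta (adjusted p = 5.54e-16). SLC26A11, an anion carrier of the sulfate family, rose by 0.51 ± 0.08 in both.

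Among the 24 metal ion carriers, 5 rose and 5 fell with alpha, and 8 rose and 6 fell with beta. SLC39A1, a zinc importer of the cell surface, had 160 and 162 CPM with alpha and 164 and 163 CPM with beta, against 271 and 273 CPM with GFP. No library of either form reached the GFP level, and the log2 fold change was -0.75 ± 0.04 with alpha (adjusted p = 7.6e-25) and -0.73 ± 0.04 with beta (adjusted p = 2.56e-24). Its exons overlap those of CREB3L4 on the opposite strand, and whether the counting used strand is not stated, so reads of the 2 genes may be mixed. SLC39A14, a zinc and iron importer, did not pass with either form, with 158 and 155 CPM with alpha and 164 and 163 CPM with beta, against 159 and 151 CPM with GFP. With beta it passed with the GC trend removed (0.11), without GFP replicate 1 (0.12) and with an additive replicate block (0.08).

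Of the 39 mitochondrial carriers, 11 rose and 5 fell with alpha and 14 rose and 2 fell with beta, and their log2 fold changes lay between -0.31 and 0.57. SLC25A21, which carries 2-oxoadipate, had the largest rise with alpha, at 4.84 and 5.75 CPM against 3.5 and 3.6 CPM with GFP. That call (0.57 ± 0.15) was lost without alpha replicate 2 (0.46), and the exons of the gene overlap those of PAX9 and of its own antisense gene. The ADP/ATP carrier SLC25A5 stood at -0.04 ± 0.03 with alpha and 0.01 ± 0.03 with beta and did not pass.

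Of the 14 monocarboxylate and other organic ion carriers, 4 rose and 2 fell with each form. SLC16A3, the lactate exporter of glycolytic cells, had 122 and 130 CPM with alpha and 143 and 141 CPM with beta, against 104 CPM in both GFP libraries, and rose by 0.28 ± 0.04 and 0.46 ± 0.04. SLC16A7, a monocarboxylate carrier with high affinity for pyruvate, had 10.5 and 10.2 CPM with alpha and 9.81 and 11.1 CPM with beta, against 16.5 and 16.3 CPM with GFP (-0.65 ± 0.09 and -0.63 ± 0.09). SLC16A1 stood at 0.05 with alpha, where it did not pass, and rose by 0.12 with beta, a call lost without GFP replicate 2 (0.08). The exons of SLC16A3 overlap those of CSNK1D on the opposite strand. SLC22A18 rose by 0.81 ± 0.25 with alpha, but at 1.95 and 2.08 CPM against 1.1 and 1.2 CPM with GFP, and the call was lost without GFP replicate 1 (0.75) and without alpha replicate 2 (0.77). The rise of SLC16A6 with alpha (0.50) was lost without alpha replicate 2 (0.29).

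The remaining classes were smaller. Of 17 carriers of vitamins, choline, heme and lipids, 5 rose and 3 fell with alpha, and 6 rose and 4 fell with beta. SLC44A1, a choline carrier, had 129 and 123 CPM with alpha and 104 and 107 CPM with beta, against 79.6 and 82.2 CPM with GFP (0.65 ± 0.04 and 0.39 ± 0.04). SLC46A3, a lysosomal member of the folate carrier family, had 27.9 and 30 CPM with alpha and 25.2 and 25.4 CPM with beta, against 40.1 and 42.3 CPM with GFP. It fell by 0.51 ± 0.06 and 0.69 ± 0.06 on the log2 scale. SLC10A3, of the bile acid carrier family, had 50.7 and 49.1 CPM with beta, against 36.9 and 35.6 CPM with GFP (0.47 ± 0.06). SLC27A5, a bile acid and fatty acid CoA ligase, fell by 0.39 and 0.41, calls that were lost without alpha replicate 1 (-0.35) and without beta replicate 1 (-0.28). Of 10 nucleoside and nucleotide sugar carriers 2 rose and 1 fell with alpha, and 2 rose and 3 fell with beta. Of 6 peptide and vesicle carriers 1 rose and 2 fell with each form, among the falls with beta SLC37A4, the glucose-6-phosphate carrier of the endoplasmic reticulum (-0.36 ± 0.07).

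**Figure D2:**
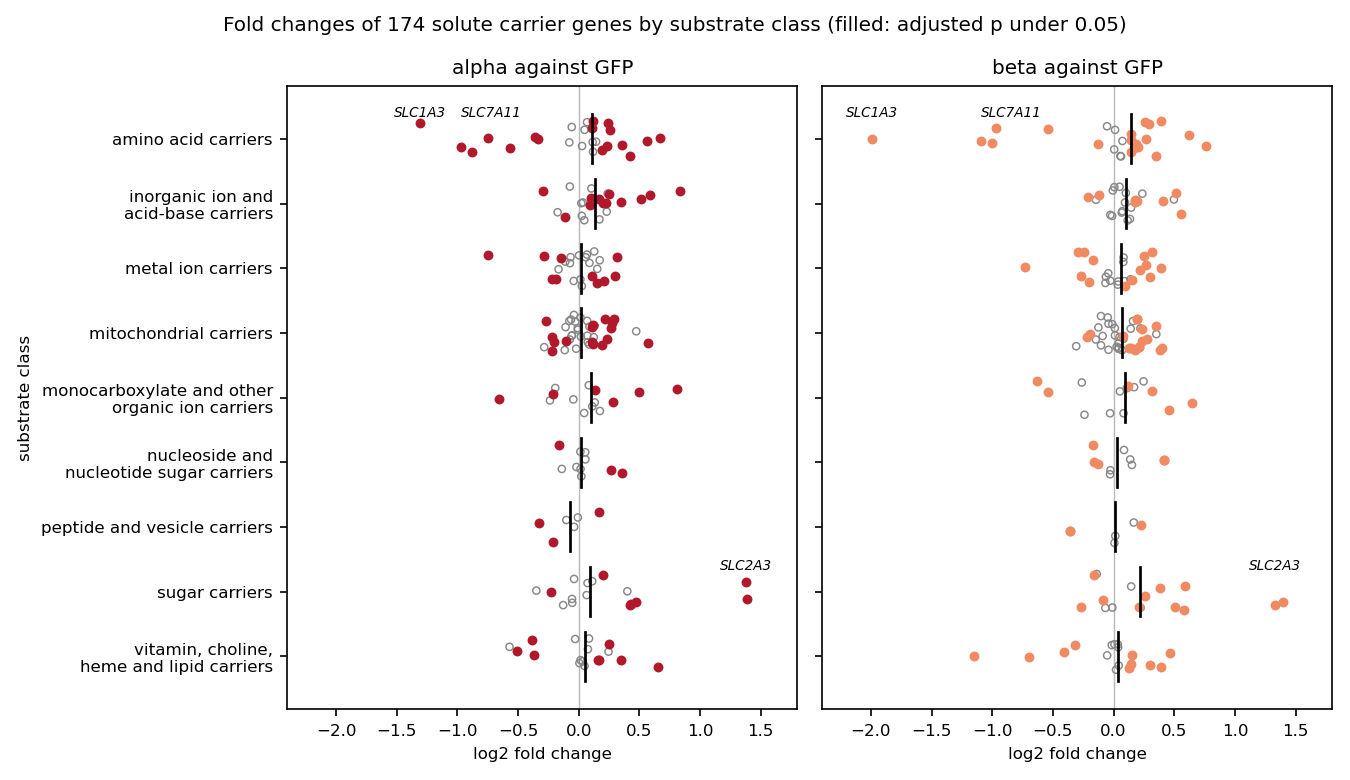
Log2 fold change (horizontal axis) of each of the 174 solute carrier genes by substrate class, in alpha against GFP and beta against GFP, with filled points for an adjusted p under 0.05, open points for the rest and a black line at the class median. Class medians lay between -0.07 and 0.22, with SLC2A3 far above them and SLC1A3 and SLC7A11 far below.

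The 300-base windows around the gene starts show what sequence lies at members that moved with PRDM1. RefSeq promoter windows, from 250 bases before to 50 bases after the start in GRCh38.p14, were found for 142 of the 174 genes. SLC2A14 on chr12:7872866-7873165 (minus strand) and SLC1A3 on chr5:36596338-36596637 (plus strand) are shown as the strongest rise and the strongest fall that have a window. The rise of SLC2A14 is uncertain, as its transcript shares sequence with that of SLC2A3. SLC6A16, a member of the neurotransmitter carrier family on chr19:49325142-49325441 (minus strand), is shown because its window holds 2 copies of AGNGAAAG. That is a loose form of the sequence that PRDM1 is known to bind, with any base taken at N. The 2 copies read AGAGAAAG and AGGGAAAG, and whether PRDM1 binds these forms was not tested. SLC6A16 lies outside the naming rule and was chosen after its values were seen. Capitals mark the copies of AGNGAAAG, and the sequences run 5′ to 3′ on the strand of the gene.
SLC2A14: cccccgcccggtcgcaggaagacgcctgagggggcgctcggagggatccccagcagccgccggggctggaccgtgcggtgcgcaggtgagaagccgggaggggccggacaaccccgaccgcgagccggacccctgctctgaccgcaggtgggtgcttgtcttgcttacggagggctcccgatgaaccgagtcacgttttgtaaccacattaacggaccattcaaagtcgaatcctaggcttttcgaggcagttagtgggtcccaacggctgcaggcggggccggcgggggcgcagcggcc
SLC1A3: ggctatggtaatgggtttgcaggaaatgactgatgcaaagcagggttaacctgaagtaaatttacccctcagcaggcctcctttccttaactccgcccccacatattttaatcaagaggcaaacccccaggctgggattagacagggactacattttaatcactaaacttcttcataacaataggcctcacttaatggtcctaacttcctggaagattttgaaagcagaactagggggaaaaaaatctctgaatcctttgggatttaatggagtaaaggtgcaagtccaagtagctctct
SLC6A16: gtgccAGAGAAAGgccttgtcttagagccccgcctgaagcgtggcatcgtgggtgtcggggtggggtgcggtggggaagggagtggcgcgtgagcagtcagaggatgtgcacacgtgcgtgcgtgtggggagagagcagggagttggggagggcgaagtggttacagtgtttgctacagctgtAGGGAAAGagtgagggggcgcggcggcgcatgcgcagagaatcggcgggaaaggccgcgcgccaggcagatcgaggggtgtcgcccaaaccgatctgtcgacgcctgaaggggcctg

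AGNGAAAG was searched on both strands, and its letters GAAA also occur in the elements bound by interferon regulatory factors. The letters were in 13 of the 142 solute carrier windows (9.15%), in 6.68% of 9432 windows of tested genes and in 7.99% of all 35116 windows of the table. They were in 4 of 27 windows of genes that fell with beta and in 4 of 49 of those that rose, and in 2 of 23 and 3 of 45 with alpha. The windows of SLC1A3 and SLC2A14 hold none, and SLC2A3 and SLC7A11 had no window in the table. SLC6A16 itself had 0.934 and 0.992 CPM with alpha and 0.682 and 1.08 CPM with beta, against 1.89 and 1.67 CPM with GFP. A match is a description of these letters in these windows and says nothing about binding.

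Alpha and beta differed in few solute carriers. In alpha against beta, 5 genes rose, 8 fell and 161 did not pass, against 6.24% of all genes called, 3.45% higher with alpha and 2.79% lower, and none of the 174 passed with 2-fold or more (0.583% of all genes did). PRDM1 counts were 11475 and 9681 in the alpha libraries and 22395 and 28423 in the beta libraries, so the form and the amount of PRDM1 cannot be told apart. SLC1A3 was the largest difference, with the alpha values given above over the beta values by 0.68 ± 0.06 on the log2 scale (adjusted p = 6.7e-15). SLC38A2, a sodium-coupled importer of small neutral amino acids that cells induce when starved of them, had 157 and 150 CPM with alpha and 190 and 205 CPM with beta, and differed by -0.37 ± 0.04 (adjusted p = 3.55e-08). In GFP it had 194 and 202 CPM. SLC44A1 was higher with alpha by 0.26 ± 0.04 and SLC16A3 lower by 0.17 ± 0.04, a call lost without alpha replicate 1 (-0.13). The taurine importer SLC6A6 had 47.9 and 48.7 CPM with alpha and 55.2 and 57 CPM with beta, the cationic amino acid importer SLC7A2 had 50.1 and 46.6 CPM with alpha and 55.8 and 55.9 CPM with beta, and the ADP/ATP carrier SLC25A4 had 79.4 and 75.8 CPM with alpha and 87.7 and 90.8 CPM with beta. Each of these 3 calls was lost without beta replicate 2 (-0.20, -0.21 and -0.18) and without 1 of the alpha libraries. SLC16A9 (0.32), SLC38A5 (0.13), SLC35A4 (0.18) and SLC37A1 (-0.27) also passed, and each lost its call without alpha replicate 1. SLC2A3 did not pass (0.05 ± 0.03, adjusted p = 0.376). The count of 13 fell to 7 without alpha replicate 1, 6 without alpha replicate 2 and 5 without beta replicate 2.

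The genes around the carriers were described by 3 lists, beside 21.2% of all genes risen and 16.3% fallen with alpha and 22.9% and 18% with beta. Of 15 tested partner proteins and sodium pump genes, 8 rose and 5 fell with alpha and 7 rose and 4 fell with beta, with medians of 0.13 and 0.05. ATP1B1, a beta subunit of the sodium pump that sets the gradient many carriers use, rose by 0.53 ± 0.05 and 0.70 ± 0.05. CA12, a carbonic anhydrase of the cell surface, fell by 0.68 ± 0.07 and 0.53 ± 0.07. BSG, the basigin chaperone of the lactate carriers, rose by 0.18 and 0.13. Of 26 regulators and users of carried substrates, 4 rose and 11 fell with alpha and 5 rose and 11 fell with beta, with medians of -0.07 and -0.05. ASNS, asparagine synthetase, fell by 0.60 ± 0.04 and 0.57 ± 0.04, and PSAT1, of serine synthesis, by 0.50 ± 0.04 and 0.49 ± 0.04. Of 11 tested carriers with other names, 3 rose and 2 fell with each form. UCP2, an uncoupling protein of the mitochondrial carrier family, rose by 0.74 ± 0.04 and 0.76 ± 0.04, and SLCO4A1, an organic anion carrier, by 0.64 ± 0.05 and 0.48 ± 0.05, while TMEM165, a Golgi manganese carrier, fell by 0.66 ± 0.05 and 0.55 ± 0.05.

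In the knockout derivative KO2 most solute carriers that passed were lower than in WT. In KO2 against WT 14 rose, 41 fell and 119 did not pass, or 8.05% and 23.6% of the 174, where 30% of all genes passed, 15.1% as rises and 14.9% as falls. The median log2 fold change was -0.05 over the solute carriers and near 0 over all genes. Falls outnumbered rises among amino acid carriers (10 and 2 of 25), inorganic ion carriers (7 and 2 of 23) and vitamin and lipid carriers (7 and 0 of 17), and rises numbered 3 and falls 4 of 39 among mitochondrial carriers. Without KO2 replicate 2 the count of called genes fell to 36. A fall of at least 2-fold was seen in SLC23A2 alone (1.55% of all genes fell so).

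SLC23A2, the sodium-coupled vitamin C importer of most tissues, had 19.3 and 17.4 CPM in KO2, against 43.3 and 42.6 CPM in WT. Its log2 fold change was -1.18 ± 0.06 (adjusted p = 3.66e-24), and every other group stood at 41.4 CPM or more. SLC12A2 had 47.8 and 46.2 CPM in KO2, against 93 and 93.5 CPM in WT (-0.95 ± 0.04, adjusted p = 2.04e-24). SLC46A3 had 22.6 and 21.4 CPM in KO2, against 37.1 and 39.9 CPM in WT (-0.77 ± 0.05). SLC2A10 had 3.93 and 4.04 CPM in KO2, against 7.2 and 7.84 CPM in WT (-0.89 ± 0.11), and SLC27A3, of the fatty acid carrier family, fell by 0.60 ± 0.09, though its exons overlap those of INTS3. The fall of SLC25A45, a mitochondrial carrier (-0.82), was lost without KO2 replicate 2 (-0.50).

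Rises in KO2 were smaller. SLC16A3 had 161 and 160 CPM in KO2, against 115 and 122 CPM in WT (0.47 ± 0.04, adjusted p = 1.44e-16). SLC1A3 had 153 and 151 CPM in KO2, against 126 and 124 CPM in WT (0.32 ± 0.04). SLC1A1 rose by 0.37 ± 0.09, a call lost without WT replicate 2 (0.28), and SLC16A9, a carnitine carrier, by 0.41 ± 0.07. SLC39A6, a zinc importer, had 255 and 258 CPM in KO2, against 235 and 230 CPM in WT (0.18 ± 0.03). SLC2A13, a proton-coupled inositol carrier, rose by 0.27 ± 0.09, a call lost without WT replicate 2 (0.25) and without KO2 replicate 2 (0.21). SLC2A3 had 394 and 397 CPM in KO2, against 524 and 547 CPM in WT, and fell by 0.40 ± 0.03 (adjusted p = 2.14e-15). SLC7A11 (-0.09) and SLC7A5 (0.01, or -0.02 without WT replicate 1 or KO2 replicate 1) did not pass. SLC1A5 fell by 0.09, a call lost without WT replicate 2 (-0.08) and without KO2 replicate 1 (-0.08). SLC2A1 rose by 0.10, a call lost without WT replicate 1 (0.07) and without KO2 replicate 2 (0.09).

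In KO5 the glucose carrier SLC2A3 was higher than in WT, where in KO2 it was lower. In KO5 against WT 46 solute carriers rose, 56 fell and 72 did not pass, against 51.2% of all genes called, 25.2% risen and 25.9% fallen. Rises and falls of at least 2-fold numbered 3 and 1 (0.957% and 1.54% of all genes). Fold changes in this comparison ran with the GC content of the transcript, with a Spearman correlation of -0.52 over 12539 genes and -0.65 over the 174 solute carriers, across genes that are not independent replicates. After removal of that trend, 41 rose and 41 fell, and 57 genes were called in the same direction both ways.

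SLC2A3 had 1330 and 1300 CPM in KO5, against 524 and 547 CPM in WT, the level also seen with alpha and beta (1.32 ± 0.03, adjusted p = 4.34e-36; 1.24 with the GC trend removed). SLC2A14 had 57.7 and 55.4 CPM in KO5, against 21.8 and 18 CPM in WT (1.55 ± 0.06). SLC39A10, a zinc importer, had 135 and 138 CPM in KO5, against 90 and 87.4 CPM in WT (0.65 ± 0.04, or 0.49 with the trend removed). SLC16A6 and SLC25A21 rose by 0.65 ± 0.12 and 0.66 ± 0.13 at under 8 CPM.

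SLC46A3 had 20.9 and 19.7 CPM in KO5, against 37.1 and 39.9 CPM in WT, and fell by 0.90 ± 0.06 (adjusted p = 3.45e-18). SLC7A11 had 19.8 and 21.7 CPM in KO5, against 27.3 and 29.9 CPM in WT (-0.44 ± 0.06, or -0.62 with the GC trend removed). SLC39A3, a zinc importer, had 21.4 and 22.1 CPM in KO5, against 33 and 35 CPM in WT (-0.62 ± 0.06), and SLC2A6 had 19.2 and 18.7 CPM, against 28.9 and 29 CPM (-0.58 ± 0.06). SLC29A4, a monoamine carrier, had 10.3 and 8.71 CPM in KO5, against 14.6 and 14.9 CPM in WT (-0.60 ± 0.08), though its exons overlap those of TNRC18 on the opposite strand. SLC16A5 had 4.23 and 3.6 CPM in KO5, against 6.11 and 6.31 CPM in WT (-0.64 ± 0.13). SLC22A18 fell by at least 2-fold in the fit, at 0.599 and 0.385 CPM in KO5, against 1.34 and 1.18 CPM in WT. SLC7A5 fell by 0.23 ± 0.03, SLC3A2 by 0.15 ± 0.03 and SLC16A3 by 0.26 ± 0.04, calls that were lost with the trend removed (-0.04, -0.05 and -0.04). SLC1A5 did not pass (-0.02) and was called 0.17 higher in KO5 with the trend removed. SLC45A1 fell by 0.67, a call lost without WT replicate 1 (-0.47) or either KO5 library (-0.64 and -0.70) and with the trend removed (-0.43).

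Set against each other, KO5 and KO2 differed in 106 of the 174 solute carriers, with 60 higher and 46 lower in KO5, where 54.9% of all genes passed. With the GC trend removed 94 differed, and 66 genes were called in the same direction both ways. The difference was at least 2-fold for 6 higher and 1 lower (2.05% and 1.38% of all genes). SLC2A3 was higher in KO5 than in KO2 by 1.72 ± 0.03 on the log2 scale (adjusted p = 6.24e-41), SLC23A2 by 1.39 ± 0.06 and SLC12A2 by 1.21 ± 0.04. Also past 2-fold were SLC2A14 (1.65), SLC2A12, with 3.86 and 4.16 CPM in KO5 and 2.12 and 1.8 CPM in KO2, and SLC22A18, the lower one, with 0.599 and 0.385 CPM in KO5 and 1.34 and 1.26 CPM in KO2. SLC16A3 was lower in KO5 by 0.73 ± 0.04 (adjusted p = 5.45e-23). SLC2A8, an intracellular member of the glucose carrier family, had 19.7 and 20 CPM in KO5 and 29.8 and 29.4 CPM in KO2 (-0.58 ± 0.06). SLC2A3, SLC23A2, SLC12A2, SLC2A12 and SLC16A3 were among those that passed in both derivatives against WT with opposite signs. The rises of SLC23A2 (0.21) and SLC12A2 (0.26) in KO5 were 0.17 and 0.13 with the GC trend removed. The rise of SLC2A12 (0.46) and the fall of SLC16A3 in KO5 then lost their calls (0.33 and -0.04). SLC46A3 was lower in both derivatives, and the 2 comparisons share the WT libraries.

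**Figure D3:**
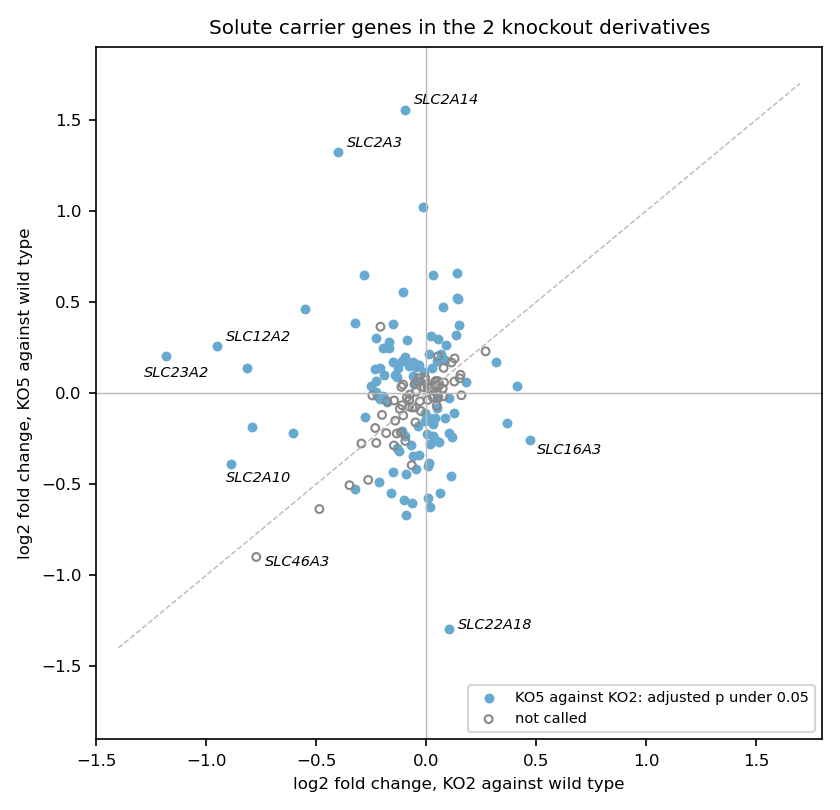
Log2 fold change of the 174 solute carrier genes in KO2 against WT (horizontal axis) and KO5 against WT (vertical axis), with filled points where KO5 differed from KO2 at an adjusted p under 0.05 and a dashed line of equal change. SLC2A3 and SLC2A14 lie high above the line and SLC46A3 near it, and both axes share the WT libraries.

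The comparisons of overexpression with GFP and of knockout with WT have no library in common. Of the 54 genes that rose with alpha, 16 fell in KO2 (29.6% of the rises and 39% of the 41 falls), where the same overlap over all genes took 24.1% and 34.3%. With beta it was 19 genes (30.6% and 46.3%), against 23.3% and 35.8% over all genes. Among them were SLC2A3, SLC12A2, SLC2A10 and SLC1A5. Of the 28 falls with alpha, 7 rose in KO2 (25% and 50% of 14), among them SLC1A3 and SLC2A1, against 26.2% and 28.3% over all genes. The KO2 changes of SLC2A1 and SLC1A5 were small, and their calls were lost with some single libraries left out, as given above. With KO5 24 of the rises with alpha fell in KO5 (44.4% and 42.9%), against 37.6% and 30.7% over all genes, and 12 rose there too (22.2% and 26.1%), against 24.3% and 20.4%. These overlaps were not recounted with the GC trend removed. Of the 24, SLC3A2, SLC7A5, SLC16A3, SLC12A4, SLC26A11, SLC19A1, SLC25A1, SLC12A9 and SLC27A4 then lost their falls in KO5. SLC52A2, SLC2A8 and SLC25A42 kept their falls in KO5 but lost their rises with alpha. SLC25A6 and SLC25A39 passed in KO5 as rises (0.16 and 0.07), while SLC2A6 and SLC10A3 were among those that kept both calls. SLC46A3 fell in all 4 of these comparisons, and SLC39A1 fell with alpha, with beta and in KO2, where it had 232 and 227 CPM against 281 and 280 CPM in WT.

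The same 3 lists were counted in the knockouts, where 15.1% of all genes rose and 14.9% fell in KO2 and 25.2% and 25.9% in KO5. Of 15 partner and sodium pump genes, 6 rose and 3 fell in KO2 and 6 rose and 6 fell in KO5. CA12 rose by 0.43 ± 0.05 in KO2 and by 0.51 ± 0.05 in KO5, and ATP1B1 fell by 0.12 in KO2 and rose by 0.21 in KO5. Of 26 regulators and users of substrates, 6 rose and 6 fell in KO2 and 11 rose and 13 fell in KO5. TXNIP, an inhibitor of glucose uptake whose transcript is induced by glucose, fell by 0.11 ± 0.04 in KO2 and rose by 0.65 ± 0.04 in KO5. ASNS fell by 0.24 ± 0.04 and 0.51 ± 0.04, and PHGDH, of serine synthesis, stood at -0.02 in KO2, where it did not pass, and fell by 0.63 ± 0.04 in KO5. Of 11 carriers with other names, 0 rose and 2 fell in KO2 and 3 rose and 3 fell in KO5, with UCP2 lower by 0.32 ± 0.04 and 0.44 ± 0.04.

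The mean of the alpha and beta groups (the overexpression arm) was also set against the mean of KO2 and KO5 (the knockout arm), with the same libraries as above. It had 74 rises, 36 falls and 64 genes that did not pass, or 42.5% and 20.7% of the 174, against 58.8% of all genes called, 31% risen and 27.7% fallen. SLC1A3 averaged 43.9 CPM in the overexpression arm and 145 CPM in the knockout arm and fell by 1.79 ± 0.03 (adjusted p = 6.62e-43). SLC38A6, of the glutamine carrier family, rose by 0.61 ± 0.07, SLC2A10 by 1.02 ± 0.08 and SLC12A2 by 0.97 ± 0.03. SLC27A2, a fatty acid carrier and CoA ligase, averaged 31.8 CPM and 46.8 CPM and fell by 0.54 ± 0.04. For SLC2A3, with a difference of 0.91 ± 0.02, the knockout arm averages KO2 and KO5 libraries that differ by 1.72 on the log2 scale. The 2 derivatives also differ by 1.21 for SLC12A2 and by 0.5 for SLC2A10, and SLC27A2 stood at 57.4 CPM in KO5 alone.

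GFP against WT compares the 2 control groups. Here 17 solute carriers rose, 24 fell and 133 did not pass, against 19% of all genes called, 8.81% risen and 10.2% fallen, and none passed with 2-fold or more (0.14% of all genes). SLC38A2 rose by 0.22 ± 0.04, with 194 and 202 CPM with GFP and 171 and 169 CPM in WT. SLC38A1, a glutamine importer, had 614 and 599 CPM with GFP and 538 and 547 CPM in WT (0.16 ± 0.03). SLC25A6, an ADP/ATP carrier, had 713 and 707 CPM with GFP and 832 and 863 CPM in WT (-0.25 ± 0.03). SLC52A2, a riboflavin carrier, had 55.1 and 51.4 CPM with GFP and 63.2 and 63.5 CPM in WT (-0.25 ± 0.05). SLC38A10, an amino acid carrier, fell by 0.27 ± 0.06 and SLC2A6 by 0.25 ± 0.06. The Spearman correlation of the fold change with GC content was -0.66 over all genes and -0.80 over the 174. With that trend removed, 1 solute carrier passed and none of the 41 kept its call, and over all genes 104 passed, where 2444 had passed without that step. Without WT replicate 2 the count was 13, and without GFP replicate 2 it was 17. The same correlation over the 174 genes was 0.26 in alpha against GFP, 0.17 in beta against GFP, -0.18 in KO2 against WT and -0.49 in KO5 against KO2. The changes of SLC2A3, SLC1A3, SLC7A11 and SLC39A1 with alpha and beta passed with the trend removed.

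**Figure D4:**
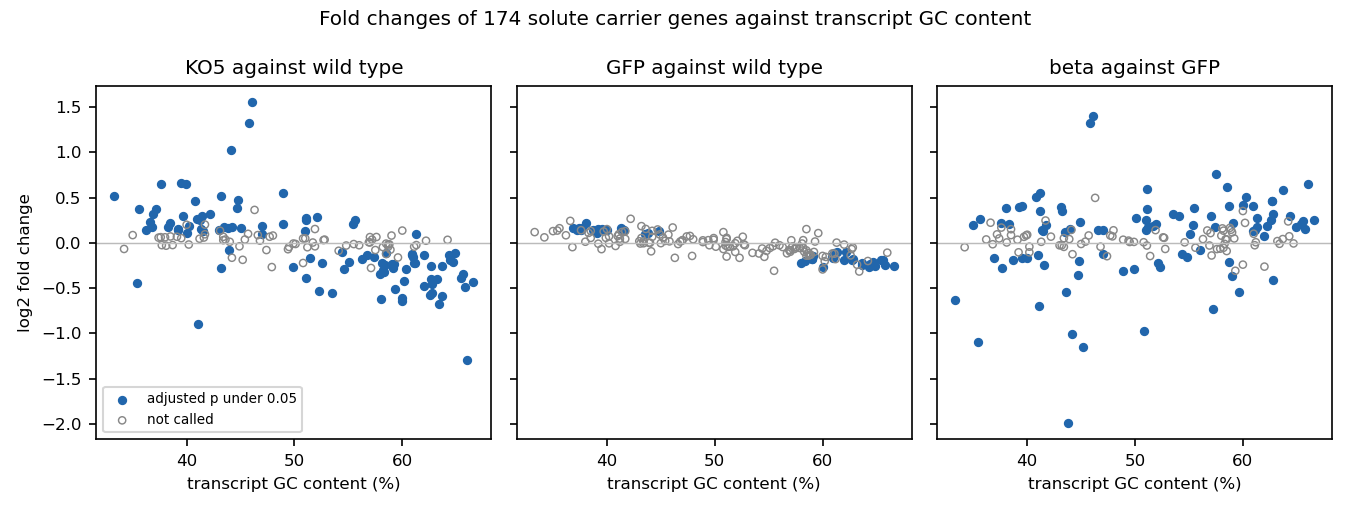
Log2 fold change (vertical axes) against transcript GC content in percent (horizontal axes) of the 174 solute carrier genes, with filled points for an adjusted p under 0.05. Fold changes fell with GC content in KO5 against WT and GFP against WT (Spearman correlations of -0.65 and -0.80) and rose weakly with it in beta against GFP (0.17).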

How the data were processed

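Polyadenylated RNA of 12 libraries in 6 groups of 2 was analysed, with groups taken from the labels. For each library the authors deposited counts, which are whole reads assigned to gene symbols and not normalized. The build was hg19 and the tools included Bowtie2, Cufflinks and TopHat, in versions not given, per the submitters' processing notes. Per the labels' protocols the library kit keeps strand, but the read counter and whether it used strand are not given in the sources used here. Of the 26366 entries in each file 2 named no gene (reads in no feature, 9.13% to 10.8%, and ambiguous reads, 1.66% to 1.75%, of all counted reads) and were left out. The deposited comparison tables of the authors were not used here, and there were 0 columns of other samples.

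CPM are counts per 1000000 gene counts. The analysis used edgeR 4.0.16 under R 4.3.3. The filterByExpr filter kept 12858 genes, TMM scaled the libraries, and 1 quasi-likelihood model of all 12 libraries with 6 group means gave the 8 comparisons. P-values were adjusted by Benjamini-Hochberg over all tested genes, with a threshold of 0.05, and a second rule asked for 2-fold besides. The common biological coefficient of variation was 2.18%. Replicates differed beyond sampling noise in every group. Standard errors are Wald errors, and a quasi-likelihood dispersion under 1 was set to 1. In the shallowest library 0 counts leave room for 0.157 CPM (a floor of 3 counts, for counting error only). Fits were tested on simulated data.

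Genes were named by a rule: the 10 largest rises and 10 largest falls that passed in each comparison with GFP, and the 6 largest in each other comparison, with no overlap between libraries and at least 2 CPM in the higher group. To these were added SLC1A5, SLC2A1, SLC2A3, SLC3A2, SLC7A5, SLC7A11, SLC16A1, SLC16A3, SLC25A5, SLC38A2 and SLC39A14 whether or not they passed. Genes outside the rule are named where a short list is spelled out, chosen after their values were seen, and some genes are not reported here. Substrate classes follow the family number, so single members may carry something else. The members, classes and 3 lists of other genes were chosen with earlier results of these data known. Transcript length, GC content and exon overlap came from the GENCODE annotation and promoter windows from RefSeq, both of GRCh38, used by gene name. In all, 27 of the 174 genes have exons that overlap a tested gene on the opposite strand by 50 bases or more.

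The alternatives tried were the Wald test of DESeq2 1.42.0, its size factors, the table without a low-count filter, a fit of the compared groups alone, an additive replicate block, each library left out and membership at 0.5 or 2 CPM. Removal of the GC trend (a loess offset per library) and a block with crossed WT numbers were chosen after seeing the data.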

Additional observations from a re-analysis of the deposited data

Results flagged for a closer look

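For 28 genes that the naming rule picks in the knockout comparisons the change against WT differed between KO5 and KO2, by edgeR's test of KO5 against KO2 itself, in a comparison where 54.9% of all genes passed. The differences are KO5 minus KO2 on the log2 scale, with n = 2 libraries per group. SLC2A3 (1.72), SLC23A2 (1.39), SLC12A2 (1.21), SLC2A12 (1.01) and SLC16A3 (-0.73) moved in opposite directions in the 2 derivatives and passed in each. With the GC trend removed, SLC2A12 (0.33) and SLC16A3 (-0.04) did not pass in KO5 against WT. Glucose carriers also differed: SLC2A14 by 1.65, on reads it may share with SLC2A3, SLC2A10 by 0.5, SLC2A6 by -0.48, SLC2A8 by -0.58, SLC2A1 by -0.13 and SLC45A1, of a sugar carrier family, by -0.58. Among monocarboxylate carriers SLC16A6 differed by 0.93, SLC16A9 by -0.37 and SLC16A1 by 0.13. Zinc carriers differed by 0.61 (SLC39A10), -0.64 (SLC39A3), -0.12 (SLC39A6) and 0.09 (SLC39A14). Amino acid carriers differed by -0.53 (SLC1A1), -0.35 (SLC7A11), -0.23 (SLC7A5), -0.15 (SLC1A3) and 0.18 (SLC38A2). The rest were SLC25A45 (0.95), SLC25A21 (0.52), SLC27A3 (0.38), SLC27A5 (-0.57) and SLC29A4 (-0.54). With the GC trend removed, the differences of SLC2A1, SLC7A5, SLC16A1, SLC38A2, SLC39A14 and SLC45A1 did not pass.

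For 11 genes that the rule picks in the overexpression comparisons the change against GFP differed between alpha and beta, by the test of alpha against beta. The difference was 0.68 for SLC1A3, which fell with both forms, 0.26 for SLC44A1, which rose with both, and -0.37 for SLC38A2, which fell with alpha and did not pass with beta. It was -0.17 for SLC16A3, 0.18 for SLC35A4, 0.13 for SLC38A5, -0.22 for SLC6A6, -0.21 for SLC7A2, -0.2 for SLC25A4, 0.32 for SLC16A9 and -0.27 for SLC37A1. These 8 each failed to pass with at least 1 library left out, and SLC16A9 and SLC37A1 with any of the 4. The alpha and beta libraries also differ in PRDM1 counts, and the form and the amount cannot be told apart.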

How the results depend on the processing

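The naming rule picks 186 pairs of gene and comparison, of which 150 passed. Of 1614 recomputed values for those 150, 1509 kept direction and call, 104 kept direction and lost the call, and 1 reversed. Leaving out a library cost 66 of 684 calls, removal of the GC trend 25 of 150, 11 of them outside GFP against WT, and the other settings 13 of 780. The number of called genes moved most in GFP against WT, with 41, 1 with the GC trend removed and 13 to 42 with a library left out. It was 13 in alpha against beta, 8 by the DESeq2 Wald test and 5 to 12 with a library left out. In KO2 against WT it was 55, or 36 to 49 with a library left out, and the 1 gene past 2-fold became 2 without WT replicate 2 or KO2 replicate 1. With a library left out the counts were 59 to 73 in alpha against GFP (82 with every library), 72 to 84 in beta against GFP (92), 77 to 92 in KO5 against WT (102), 89 to 97 in KO5 against KO2 (106) and 106 to 111 in overexpression against knockout (110). Where an arm was left with 1 library, its spread was taken from the other groups. Over all 174 genes, more calls were lost with the GC trend removed than among the named pairs. In KO5 against WT 57 of 102 calls were kept in the same direction, and in KO5 against KO2 66 of 106. A threshold of 0.5 or 2 CPM gave 178 or 168 genes.

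For the pairs picked by the rule, log2 values that changed sign were small. With the GC trend removed they were 0.17 for SLC1A5 and 0.028 for SLC2A1 in KO5 against WT, 0.10 for SLC3A2 in KO5 against KO2, 0.034 for SLC25A5 in overexpression against knockout and, in GFP against WT, -0.025 for SLC2A3, 0.001 for SLC3A2, -0.002 for SLC7A11 and 0.002 for SLC7A5, which alone had passed. Of these values with the trend removed, those of SLC1A5 in KO5 against WT and SLC3A2 in KO5 against KO2 passed with the new sign. In beta against GFP, SLC25A5 was -0.001 with DESeq2 size factors or the Wald test and -0.005 with only the compared groups. SLC38A2 was -0.006, -0.007 and -0.011 there and -0.001 with no filter. With a library left out the ranges were -0.022 to 0.062 (SLC39A14, alpha against GFP), -0.049 to 0.054 (SLC38A2) and -0.023 to 0.031 (SLC25A5, both beta against GFP), -0.048 to 0.004 (SLC7A5, alpha against beta) and -0.023 to 0.033 (SLC7A5, KO2 against WT). They were -0.066 to 0.008 (SLC2A1) and -0.108 to 0.041 (SLC38A2) in KO5 against WT, -0.033 to 0.013 (SLC3A2, KO5 against KO2), -0.016 to 0.022 (SLC1A5) and -0.009 to 0.047 (SLC2A3) in GFP against WT, and -0.023 to 0.004 (SLC25A5, overexpression against knockout). In KO5 against WT some genes outside the rule passed both ways with opposite signs. Examples were SLC25A6 (-0.11, and 0.16 with the GC trend removed) and SLC38A10 (-0.13 and 0.13). The cause of these changes was not tested.

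The replicate numbers share only a number: with 2 per group, correlations of same-numbered deviations ran from -0.231 (KO2 and WT) to 0.259 (GFP and KO2). The additive replicate block gave 81 called genes in alpha against GFP, 93 in beta against GFP, 14 in alpha against beta, 53 in KO2 against WT, 101 in KO5 against WT, 105 in KO5 against KO2, 40 in GFP against WT and 109 in overexpression against knockout. With the WT numbers crossed, the block gave 57 in KO2 against WT and 46 in GFP against WT.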
